A study of Homo sapiens with 6 samples.

Results

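This account covers 10 of the 60612 Ensembl gene identifiers in the table: HOXA5, HOXA6, HOXA7, HOXA9, HOXA10, HOXA11, the HOX cofactor gene MEIS1, the fusion partners PICALM and MLLT10, and the methyltransferase gene DOT1L. They were chosen by symbol, as the HOXA genes and the genes around the fusion known in U937, and every one of the 10 matched a single identifier and passed the filter on low counts. U937 is an established human myeloid line, labelled acute myeloid leukemia and of WT genotype. Cells of both groups were put in RPMI-1640 without serum for 36 h, either with 1 µM of a compound known only as B2 or with its DMSO vehicle, and RNA was sequenced from 3 libraries of each. Whether replicates came from separate cultures is not stated; the p-values thus reflect only library-to-library spread, possibly of technical origin.

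HOXA genes encode homeodomain transcription factors laid out in numerical order along chromosome 7. HOXA9 and its neighbours, together with MEIS1, keep myeloid progenitors in an immature, dividing state, and their transcripts normally decline as blood cells mature. U937 carries a translocation between chromosomes 10 and 11 that joins PICALM, a clathrin assembly gene also called CALM, to MLLT10, also called AF10. The product draws in DOT1L, the enzyme that methylates histone H3 at lysine 79 and holds the HOXA genes active. A gene-level count adds reads of the fused and the intact copies together, so the fusion transcript itself was not measured here.

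Library totals ran from 61150740 to 78431054 counts, and mitochondrially encoded genes held 6.44% to 10.3% of them. Levels are given as CPM, read counts scaled to library size after TMM adjustment. The cells had a myeloid character. SPI1, the myeloid factor PU.1, read 240.2, 219 and 426 CPM in the B2 replicates, against 388, 198 and 419.6 CPM in the DMSO replicates. The granule enzyme ELANE ranged from 661 to 712 CPM with B2 and from 625 to 1307 CPM with DMSO, whereas MPO, myeloperoxidase, stayed at or below 1.67 CPM. Of the other marker lists, the 12 macrophage markers summed to 33.2, 25.4 and 1087 CPM in B2 replicates 1, 2 and 3, and to 48.8, 22.3 and 1145 CPM in the DMSO replicates of those numbers. All 8 that were tested differed between replicate numbers and were highest in number 3 (edgeR adjusted p below 0.05), while MRC1 was at 0 in 6 of 6 libraries. The 9 epithelial markers summed to 35.2, 34.2 and 44.8 CPM in the B2 replicates and to 4.44, 13.1 and 31.98 CPM in the DMSO replicates. CD3D, CD3E, CD3G and the B cell gene MS4A1 were at 0 in all 6 libraries, and the 7 fibroblast markers summed to at most 8.19 CPM.

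The posterior HOXA genes were the most abundant of the 10. Per kilobase of exon, over the 6 libraries, HOXA11 averaged 34.6 ± 4.31 CPM (SD, n = 6), HOXA10 34.2 ± 5.36 CPM and HOXA9 25.1 ± 6.37 CPM. DOT1L followed at 17.98 ± 3.76 CPM per kilobase. HOXA10 lay above HOXA9 in 6 of 6 libraries, and HOXA9 above DOT1L in 5 of 6. HOXA11 and HOXA10 could not be ordered, with HOXA11 above in 3 of 6 libraries.

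DOT1L stood clear of the 6 lower genes. The lowest DOT1L library, at 14.2 CPM per kilobase, was above the highest HOXA7 library, at 9.69 CPM per kilobase. HOXA7 averaged 6.63 ± 2.33, PICALM 5.77 ± 2.12, MEIS1 4.85 ± 2.82, HOXA5 4.76 ± 1.51 and HOXA6 3.44 ± 1.40 CPM per kilobase (SD, n = 6), and the ranges of neighbours in this order overlapped. MLLT10 was lowest at 1.37 ± 0.319 CPM per kilobase, below HOXA6 in 6 of 6 libraries. Lengths are those of all annotated exons joined, 10934 bases for MEIS1 and 1285 bases for HOXA6, so a gene with long rarely used exons is understated on this scale.

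**Figure D1:**
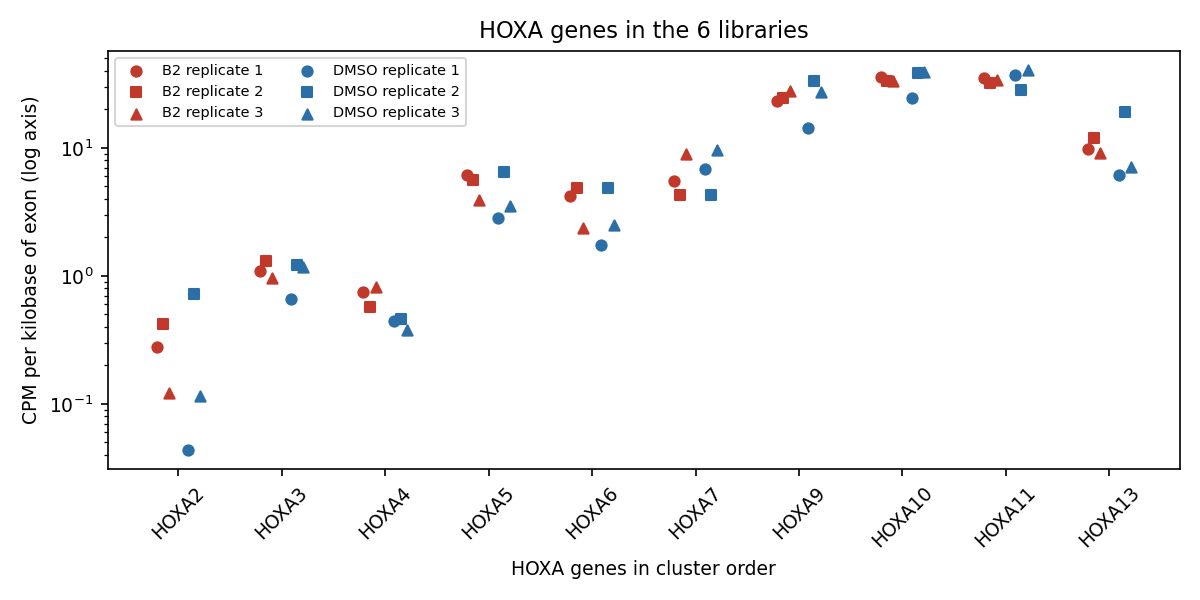
CPM per kilobase of exon (log axis) for 10 HOXA genes, HOXA2 to HOXA13, in cluster order, with B2 libraries in red on the left and DMSO libraries in blue on the right of each gene; circles, squares and triangles are replicate numbers 1, 2 and 3. HOXA9, HOXA10 and HOXA11 form the top of the cluster, HOXA2, HOXA3 and HOXA4 the bottom.

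Other coding genes of the cluster place these levels in context. HOXA13, at the far posterior end, averaged 10.6 CPM per kilobase. HOXA3, HOXA4 and HOXA2 were low at 1.07, 0.569 and 0.283 CPM per kilobase. The antisense RNA HOXA11-AS read 49.2, 37.9 and 49.0 CPM under B2 and 62.1, 38.7 and 55.6 CPM under DMSO. This was by far the largest noncoding signal of the cluster among the 6 listed. HOXA11-AS shares 22.9% of its exon length with HOXA11 on the opposite strand, so its value may include HOXA11 reads. HOTTIP, the noncoding RNA beyond HOXA13, read 6.82 to 9.98 CPM with B2 and 8.19 to 10.3 CPM with DMSO.

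Of the other HOX clusters, HOXC held some genes that were also active in these cells. HOXC10 averaged 17.3 CPM per kilobase, HOXC6 7.08 and HOXC4 3.76 CPM per kilobase. The other HOXC genes were low. HOXC8 averaged 0.52, HOXC5 0.35, HOXC9 0.21 and HOXC11 0.11 CPM per kilobase, and HOXC12 and HOXC13 did not pass the filter on low counts. The 10 HOXB genes summed to 0.840, 0.849 and 1.34 CPM in the B2 replicates, against 0.627, 0.850 and 0.812 CPM in the DMSO replicates. HOXD was as low, with 9 genes summing to at most 0.726 CPM under B2 and 0.699 CPM under DMSO.

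The upstream sequences of 4 homeobox members are shown. HOXA6, HOXA9 and MEIS1 were lowest in DMSO replicate 1 and highest in DMSO replicate 2, and HOXA11 was not. A link between these sequences and that spread was not tested. The sequences are the 250 bases before the RefSeq start (GRCh38.p14), 5′ to 3′ on the gene's strand, in lower case with the letters TATAAA in capitals where present. HOXA6 lies at chr7:27147775-27148024, HOXA9 at chr7:27165538-27165787 and HOXA11 at chr7:27185233-27185482, all on the minus strand, and MEIS1 at chr2:66434875-66435124 on the plus strand.
HOXA6: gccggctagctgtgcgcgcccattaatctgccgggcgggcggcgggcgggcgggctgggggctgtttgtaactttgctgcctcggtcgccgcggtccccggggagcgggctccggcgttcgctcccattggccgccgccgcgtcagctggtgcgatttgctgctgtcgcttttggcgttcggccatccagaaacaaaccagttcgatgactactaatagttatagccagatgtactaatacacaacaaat
HOXA9: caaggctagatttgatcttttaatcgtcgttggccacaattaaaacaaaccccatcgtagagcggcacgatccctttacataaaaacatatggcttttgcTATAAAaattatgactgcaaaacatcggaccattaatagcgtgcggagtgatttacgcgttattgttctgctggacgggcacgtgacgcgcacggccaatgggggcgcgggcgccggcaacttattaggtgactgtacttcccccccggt
HOXA11: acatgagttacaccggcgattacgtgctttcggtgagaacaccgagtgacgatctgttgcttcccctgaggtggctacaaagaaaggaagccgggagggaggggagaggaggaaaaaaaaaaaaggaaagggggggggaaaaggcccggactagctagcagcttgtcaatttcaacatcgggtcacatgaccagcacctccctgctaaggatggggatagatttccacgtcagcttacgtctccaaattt
MEIS1: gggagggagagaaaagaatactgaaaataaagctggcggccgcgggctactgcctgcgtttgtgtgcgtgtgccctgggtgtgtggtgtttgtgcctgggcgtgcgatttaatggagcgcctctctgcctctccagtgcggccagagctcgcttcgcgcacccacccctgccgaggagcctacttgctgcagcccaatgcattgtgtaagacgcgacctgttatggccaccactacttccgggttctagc
Of the 10 genes 8 matched the RefSeq promoter table, with 11 windows; HOXA5 and DOT1L had none. The letters TATAAA, on either strand, were in 3 of the 11 windows, 1 of HOXA9 and 2 of HOXA10, and in 10.7% of 35116 promoter windows. In HOXA9 they began 150 bases before the start. The letters TGATNNAT, which HOX and PBX proteins can bind together, were in 0 of the 11 and in 6.47% of all windows. The MEIS letters TGACAG were in 0 of the 11 and in 13.0% of all windows. Both strands were searched, and TGATNNAT and TGACAG both begin with TGA. GC content of the upstream window was 48.8% for HOXA9, 51.6% for HOXA11, 59.6% for MEIS1 and 62.0% for HOXA6.

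No change with B2 was detected in any of the 10 genes, and in such bulk RNA fewer cells of a type and less RNA per cell cannot be told apart. None passed the edgeR quasi-likelihood test, in which adjusted p was 1 for each member, and none had an unadjusted p below 0.05. Over all 17224 tested genes 0 (0%) passed the adjusted threshold of 0.05. DESeq2 called 3, none of them a HOXA gene or other member, and limma-voom 0. At the unadjusted threshold 85 genes (0.493%) passed, and 228 (1.32%) with the replicate number as a block, again with 0 of the 10 among them. In every one of the 10 genes the B2 and DMSO libraries overlapped, whereas 3.56% of tested genes showed fully separate groups, 1.94% with B2 higher and 1.63% with B2 lower. Of the 10, 4 had a positive and 6 a negative log2 fold change, with a median of -0.08, the same as the median of all genes. Of all 17224 tested genes, 6533 were positive and 10688 negative.

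HOXA9, the central leukemic HOX gene, read 70.5, 74.7 and 83.9 CPM in B2 replicates 1, 2 and 3, against 43.1, 101 and 82.2 CPM in the DMSO replicates. All 3 B2 libraries lay inside the DMSO range. Its log2 fold change, B2 over DMSO, was 0.02 with a standard error (SE) of 0.34 and a 95% interval from -0.76 to 0.79.

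HOXA10, which restrains myeloid maturation together with HOXA9, read 133.5, 124 and 124 CPM in the B2 replicates and 90.8, 144 and 145 CPM in the DMSO replicates. HOXA11 read 81.6, 73.8 and 78.3 CPM under B2, against 85.3, 65.1 and 94.2 CPM under DMSO. Both had every B2 library within the DMSO range. Their log2 fold changes were 0.01 (SE 0.27) and -0.07 (SE 0.25), and the interval of the HOXA10 estimate ran from -0.61 to 0.62.

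HOXA5 and HOXA6, from the middle of the cluster, gave the 2 highest estimates of the 10. HOXA5 read 10.5, 9.67 and 6.70 CPM in the B2 replicates, against 4.86, 10.97 and 6.02 CPM in the DMSO replicates. HOXA6 read 5.42, 6.28 and 3.05 CPM under B2 and 2.24, 6.30 and 3.20 CPM under DMSO. In both, DMSO replicate 1 was lowest and DMSO replicate 2 highest of the 6. The log2 fold changes were 0.30 (SE 0.39) for HOXA5 and 0.33 (SE 0.47) for HOXA6. Without DMSO replicate 1 they were 0.09 for HOXA5 and 0.06 for HOXA6, and without DMSO replicate 2 they were 0.69 (SE 0.32) and 0.83 (SE 0.40), each at an edgeR adjusted p of 0.777.

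HOXA7 had the same order of replicate numbers under either treatment. It read 13.4, 10.4 and 21.8 CPM in B2 replicates 1, 2 and 3, against 16.5, 10.4 and 23.4 CPM in those treated with DMSO. The libraries numbered 3 were the highest under either treatment and those numbered 2 the lowest. The log2 fold change for B2 was -0.14 (SE 0.41).

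MEIS1, the TALE homeodomain partner that binds DNA with HOXA9, had the widest spread. It read 50.8, 60.7 and 39.9 CPM in the B2 replicates, against 20.6, 109.6 and 36.5 CPM in the DMSO replicates. Its highest library, DMSO replicate 2, stood 5.32-fold above its lowest, DMSO replicate 1. The log2 fold change was -0.14 with an SE of 0.56 and an interval from -1.42 to 1.14. It was 0.80 without DMSO replicate 2 and -0.52 without DMSO replicate 1, and 0.19 (SE 0.37) with the replicate number as a block.

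The fusion partners were measured at moderate and low levels. PICALM read 22.5, 31.7 and 39.2 CPM in the B2 replicates and 20.4, 54.4 and 33.8 CPM in the DMSO replicates. MLLT10, a reader of histone H3 that recruits DOT1L, read 7.66, 9.25 and 9.08 CPM under B2, against 7.70, 13.7 and 9.72 CPM under DMSO. Both were highest in DMSO replicate 2. The log2 fold change was -0.22 (SE 0.40) for PICALM and -0.26 (SE 0.32) for MLLT10. Without DMSO replicate 2 the estimate was 0.18 for PICALM and -0.04 for MLLT10.

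DOT1L read 219.6, 208 and 160 CPM in the B2 replicates, against 275, 166 and 187 CPM in the DMSO replicates. Its order of libraries was the reverse of that of HOXA9 at both ends of the DMSO group, with DMSO replicate 1 highest and DMSO replicate 2 lowest of the DMSO libraries. The log2 fold change was -0.10 (SE 0.29), and 0.15 without DMSO replicate 1.

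**Figure D2:**
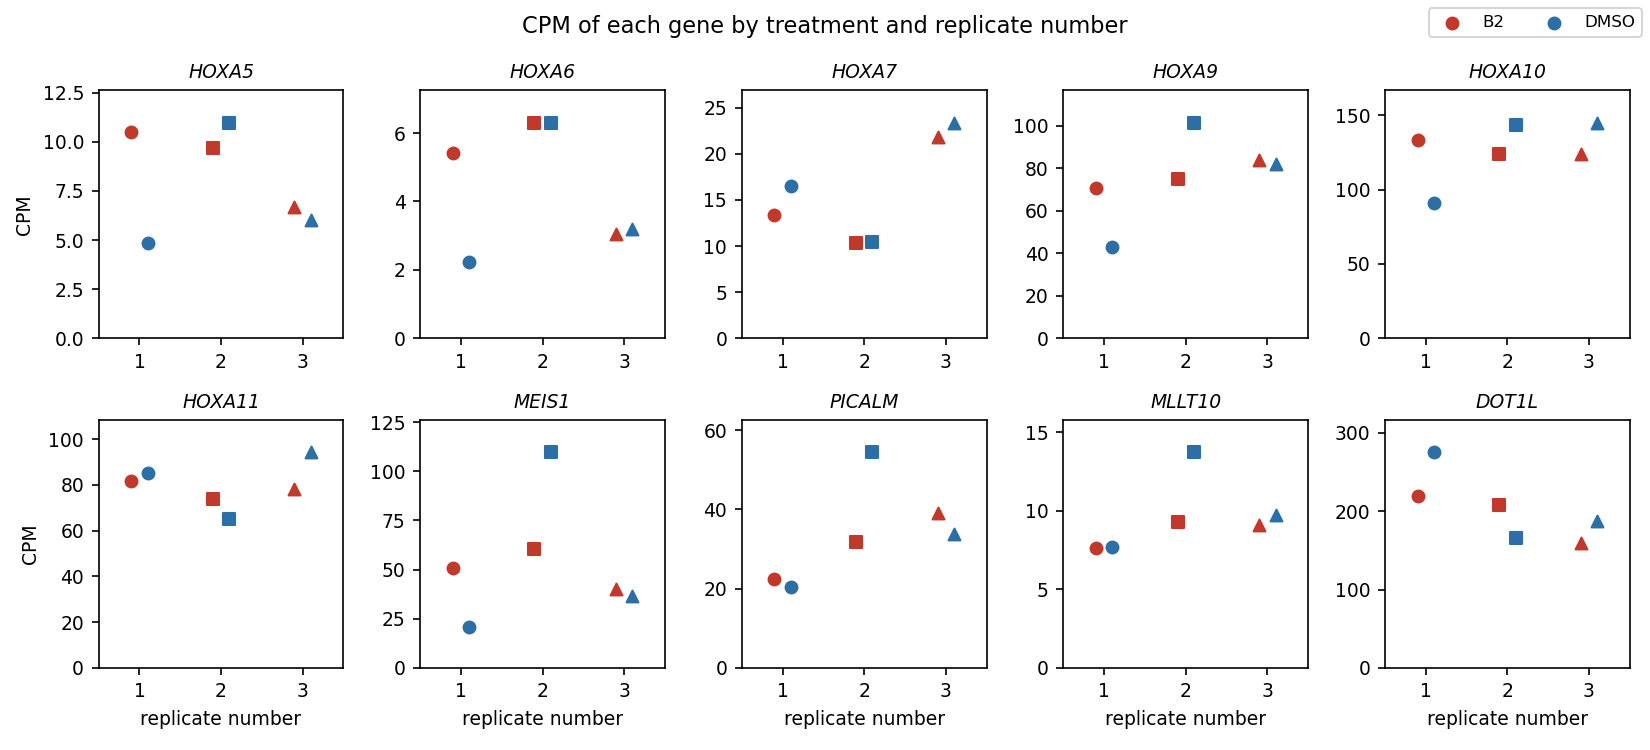
CPM of each of the 10 genes (vertical axes from 0) against replicate number, with B2 in red left of DMSO in blue. DMSO replicate 2 stands apart upward in MEIS1 and PICALM, and number 3 is highest under both treatments in HOXA7.

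The intervals set what sizes of change the fit without a replicate block leaves possible. For 5 of the 10, HOXA9, HOXA10, HOXA11, MLLT10 and DOT1L, the 95% interval lay within a 2-fold change either way, as it did for 36.6% of all tested genes. For the other 5 the interval went past 2-fold in at least 1 direction, and for MEIS1 in both. The widest reached a log2 value of 1.41 for HOXA6 on the upper side and -1.42 for MEIS1 on the lower side. With the replicate number as a block, the SE was smaller for each of the 10. It was 0.26 against 0.41 for HOXA7, 0.29 against 0.40 for PICALM and 0.37 against 0.56 for MEIS1. Intervals of that fit are not given here, and they would be narrower for these genes.

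The 3 same-numbered pairs did not share a direction for most of the genes. Within number 1, the B2 library held 2.47 times the MEIS1 level of its DMSO partner, 2.42 times the HOXA6 level, 2.16 times the HOXA5 level and 1.64 times the HOXA9 level. Within number 2 the same ratios were 0.553 for MEIS1, 0.998 for HOXA6, 0.881 for HOXA5 and 0.737 for HOXA9. In number 3 all 4 were close to 1, from 0.956 for HOXA6 to 1.11 for HOXA5. Only HOXA7 and MLLT10 were below their DMSO partner in every number, 2 of the 10 genes, as were 9.12% of all genes.

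**Figure D3:**
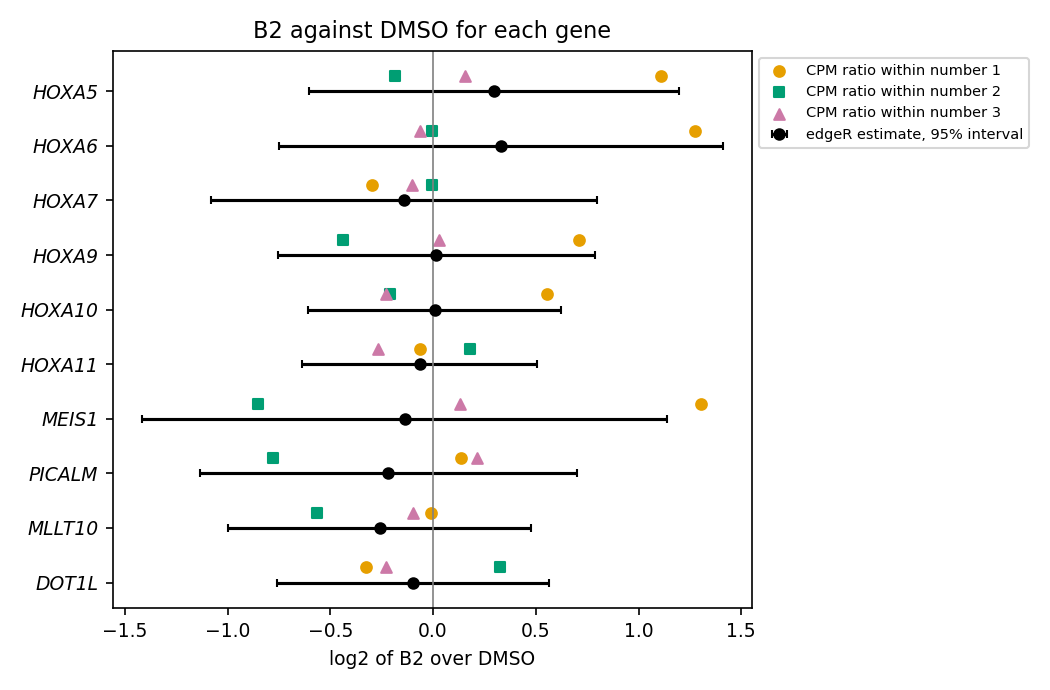
Log2 of B2 over DMSO for each gene: black points with bars are the edgeR estimate and its 95% interval (n = 3 libraries each), coloured symbols above them are the CPM ratio within each replicate number. Every interval spans 0, and number 1 gives the highest ratio for HOXA5, HOXA6, HOXA9, HOXA10, MEIS1 and MLLT10.

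Between replicate numbers, with treatment in the fit, 0 of the 10 genes passed the edgeR test at an adjusted p of 0.05, which 2.68% of all genes passed. DESeq2 called 1 of the 10, HOXA7 (adjusted p = 0.0270), along with 11.9% of all genes that it gave an adjusted p. Without B2 replicate 1 edgeR called 3 of the 10, HOXA6, HOXA7 and MEIS1 (adjusted p = 0.0455, 0.0337 and 0.0154), along with 22.9% of all genes. At an unadjusted p below 0.05 there were 3 of the 10, HOXA7, MEIS1 and PICALM, against 21.8% of all genes. The HOXA7 mean was 22.6 CPM for number 3, 14.96 CPM for number 1 and 10.4 CPM for number 2, with a log2 difference of 0.86 (SE 0.27) between number 3 and the mean of the others. Its edgeR adjusted p was 0.145, from the F test of any difference between the numbers (2 degrees of freedom), not of this difference alone. It was the only one of the 10 with both number 3 libraries above all others, which 12.3% of all genes showed. The macrophage markers moved with number 3 in the same libraries, as given above, and their part in the HOXA7 value was not tested.

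HOXA5, HOXA6 and MEIS1 had negative estimates for number 3. Against the mean of numbers 1 and 2, the log2 difference of number 3 was -0.47 (SE 0.33) for HOXA5, -0.61 (SE 0.37) for HOXA6 and -0.53 (SE 0.39) for MEIS1. Leaving out 1 library gave -0.66 to -0.16 for HOXA5 and -0.965 to -0.27 for HOXA6. For MEIS1 the difference was -0.015 without B2 replicate 1, -0.018 without DMSO replicate 2 and -0.78 without DMSO replicate 1. MEIS1 averaged 38.2 CPM in number 3, with 85.1 CPM in number 2 and 35.7 CPM in number 1 (edgeR adjusted p = 0.158). HOXA9 (0.23, SE 0.29), HOXA10 (0.14, SE 0.27) and HOXA11 (0.18, SE 0.26) had small positive values in the libraries that held the macrophage markers. DOT1L had -0.31 (SE 0.26).

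Much of the spread among the 10 lay between DMSO replicates 1 and 2. DMSO replicate 2 was the highest of the 6 libraries for 6 of the 10 genes, where it was for 32.8% of all genes. DMSO replicate 1 was the lowest for 6 of the 10, and for 32.9% of all genes. Both held for HOXA5, HOXA6, HOXA9, MEIS1 and PICALM, as they did for 19.1% of all genes. The summed epithelial markers were also lowest in DMSO replicate 1, at 4.44 CPM, and their part in these values was not tested.

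GC content moved with this difference. Across 17015 tested genes the log2 ratio of DMSO replicate 2 over replicate 1 had a Spearman correlation of -0.59 with the GC content of the longest transcript, a description over genes that share the same 2 libraries. Genes in the lowest GC quartile, under 43.0%, had a median log2 ratio of 1.01, and genes in the highest, over 56.9%, one of -0.70. MEIS1, at 41.7% GC, had 2.41 and PICALM, at 42.1% GC, 1.41. DOT1L, at 62.7% GC, had -0.73.

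HOXA6 did not follow that order. With 60.1% GC it still had a log2 ratio of 1.48, and 2.02 once the trend with length and GC content was taken out of each library. The same step took MEIS1 to 1.00, PICALM to 0.19, HOXA9 to 0.46, HOXA5 to 0.74 and MLLT10 from 0.83 to -0.43. HOXA10 also went against its fitted trend of -0.16, with a log2 ratio of 0.66 before and 0.82 after. Over the 6 libraries the log2 range of HOXA9 was 1.23 before and 0.48 after the step, and that of MEIS1 2.41 before and 1.00 after. The log2 range of HOXA10 was 0.68 before and 0.82 after. The median log2 range of all tested genes was 1.24 before and 1.04 after.

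**Figure D4:**
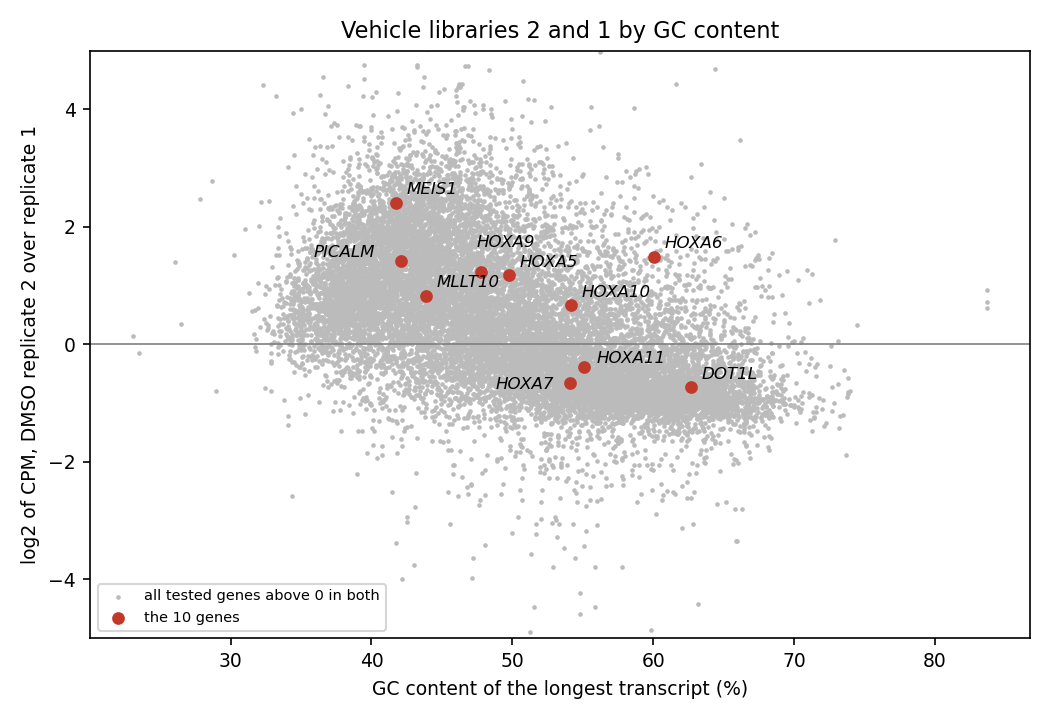
Log2 ratio of CPM in DMSO replicate 2 over DMSO replicate 1 against the GC content of the longest transcript, for 16373 genes above 0 in both (grey; 17 lie beyond the axis) and the 10 genes (red). MEIS1 and PICALM lie at the low-GC, high-ratio end, DOT1L at the other, and HOXA6 lies above most genes of like GC content.

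Some of the 10 genes varied together over the 6 libraries. HOXA5 and HOXA6 correlated at 0.97 (Pearson r of log2 CPM, 6 libraries, given as a description), HOXA9 and HOXA10 at 0.91 and PICALM and MLLT10 at 0.93. MEIS1 was at 0.90 with HOXA5 and HOXA6. HOXA9 and DOT1L ran opposite at -0.93, and HOXA7 was at -0.81 with HOXA6. These points share library, depth and the GC trend. With the length and GC trend taken out of each library, HOXA5 and HOXA6 were at 0.94, HOXA9 and HOXA10 at 0.72, PICALM and MLLT10 at 0.42, and HOXA9 and DOT1L at -0.91. MEIS1 was then at 0.95 with HOXA5 and 0.94 with HOXA6.

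Likeness to HOXA9 was taken as Pearson r of log2 CPM with the length and GC trend left in. The 5 genes most like it among 12874 with a mean of at least 1 CPM were NBR1 (0.999), an autophagy receptor gene, MAP3K8 (0.998), a kinase gene, CLMN (0.996), TMEM60 (0.995) and ZNF224 (0.993). None is a HOX gene. These values are the highest of 12874 over 6 libraries that share the GC trend, and are given as a description. NBR1 read 29.2, 32.5 and 36.2 CPM under B2, against 16.1, 45.9 and 34.5 CPM under DMSO, the same order as HOXA9.

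Exons in the HOXA cluster overlap, and the strand setting of the counting is not given in the sources used here. HOXA7 shares 62.5% of its exon length with the antisense gene HOXA-AS3, HOXA6 39.3% with the same gene and HOXA11 31.1% with HOXA11-AS. HOXA-AS3 read 5.70, 3.52 and 2.54 CPM in B2 replicates 1, 2 and 3, against 3.58, 2.91 and 4.64 CPM in the DMSO replicates. Values of HOXA6, HOXA7 and HOXA11 are therefore uncertain, and so are those of HOXA-AS3 and HOXA11-AS.

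On the same strand, HOXA9 shares 13.1% and HOXA10 9.9% of exon length with ENSG00000257184. That identifier had 6, 304 and 23 counts in B2 replicates 1, 2 and 3, against 39, 303 and 340 counts in the DMSO replicates, and differed between replicate numbers (edgeR adjusted p = 0.0393). HOXA9 itself had 2405 to 7869 counts.

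HOXA4, outside the 10, shares 31.0% of its exon length with ENSG00000273433 on the same strand. HOXA3 shares 8.8% with the same identifier, also on the same strand. That identifier had 0 counts in every B2 library, and 54, 100 and 113 counts in the DMSO replicates. HOXA4 read 1.30, 0.999 and 1.44 CPM under B2, against 0.770, 0.799 and 0.657 CPM under DMSO, and was the only one of these HOXA genes whose groups did not overlap (log2 fold change 0.75, SE 0.40, edgeR adjusted p = 1). Added together, HOXA4 and ENSG00000273433 gave 1.25 ± 0.224 CPM with B2 and 1.98 ± 0.209 CPM with DMSO (SD, n = 3 each), the opposite direction to HOXA4 alone. HOXA3 and ENSG00000273433 together gave 4.83 ± 0.711 CPM with B2 and 5.61 ± 1.57 CPM with DMSO. HOXA3 alone had 4.83 ± 0.711 CPM with B2 and 4.38 ± 1.34 CPM with DMSO. ENSG00000273433 had the smallest edgeR adjusted p of all genes, 0.674, and was not called. DESeq2 called it (adjusted p = 1.785e-06), as did edgeR with the replicate number as a block once the trend with length and GC content was taken out (adjusted p = 0.0439). These were singled out after their values were seen.

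No gene for the proteins that work with HOXA9 and MEIS1 was called with B2. Of 11 TALE homeobox cofactor genes, MEIS1 among them, 10 were tested and 0 were called, with 4 positive and 6 negative log2 fold changes and a median of -0.07, where the median of all genes was -0.08. PBX2, a DNA-binding partner of HOX proteins, averaged 28.7 CPM per kilobase, against 4.03 CPM per kilobase for PBX3. MEIS3 was the 1 cofactor of 10 that differed between replicate numbers (edgeR adjusted p = 0.0265), as did 2.68% of all genes. In number 3 its level was 11.01 CPM under B2 and 11.6 CPM under DMSO, compared with 2.89 to 6.49 CPM in numbers 1 and 2.

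Around DOT1L and the fusion, 14 DOT1L and elongation genes, DOT1L and MLLT10 included, were tested and 0 were called. Of these, 3 were positive and 11 negative (median -0.10). Most tested genes were negative as well, 10688 against 6533 positive. MLLT1, a YEATS-domain reader also known as ENL, averaged 28.3 CPM per kilobase, and MLLT6, the closest relative of MLLT10, 20.1 CPM per kilobase, each above the 1.37 CPM per kilobase of MLLT10. NPM1, a nucleolar chaperone mutated in other HOXA9-high leukemias, read 374, 399 and 316 CPM under B2 and 569.7, 681 and 318 CPM under DMSO (log2 fold change -0.53, SE 0.33). AFF1 read 34.7, 52.9 and 31.3 CPM in the B2 replicates, against 16.6, 92.3 and 18.2 CPM in the DMSO replicates, the same extremes as MEIS1.

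The chromatin regulators of HOX genes gave the same outcome. Among 11 MLL and menin complex genes 0 were called (3 positive, 8 negative, median -0.06), and among 16 Polycomb repressors 0 (7 positive, 9 negative, median -0.10). KMT2A, the histone H3 lysine 4 methyltransferase MLL, read 16.8, 23.8 and 14.1 CPM under B2, against 6.09, 51.5 and 9.79 CPM under DMSO. BMI1, a Polycomb component and a neighbour of MLLT10 on chromosome 10, read 74.9, 94.8 and 101 CPM under B2 and 98.99, 174 and 123 CPM under DMSO. Its log2 fold change was -0.55 (SE 0.29).

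Genes lying near the fusion partners were listed by position. Of 8 neighbours of MLLT10, 6 were tested and 0 called, and of 10 neighbours of PICALM, 8 were tested and 0 called. TMEM126B, a mitochondrial complex I assembly factor beside PICALM, read 14.4, 14.2 and 18.6 CPM in the B2 replicates and 19.4, 24.3 and 21.7 CPM in the DMSO replicates. Its log2 fold change was -0.47 (SE 0.28). TMEM126A, next to it, read 8.17, 8.98 and 9.11 CPM in the B2 replicates and 9.496, 11.19 and 9.56 CPM in the DMSO replicates (log2 fold change -0.20, SE 0.28). In these 2 of the 8 neighbours every B2 library was below every DMSO library, as in 1.63% of all genes, and neither was called. Of 18 clathrin endocytosis genes, PICALM and its pathway, 17 were tested and 0 called (4 positive, 13 negative, median -0.13). SNAP91, the neuronal relative of PICALM, had counts in 1 library only and was not tested. XPO1, the exportin that CALM-AF10 is known to bind, read 73.5, 112 and 86.7 CPM under B2, against 77.5, 179 and 88.7 CPM under DMSO.

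Genes linked to HOXA9 and MEIS1 in leukemia were also not called with B2. Of 17 such genes 16 were tested (6 positive, 10 negative, median -0.13). MYB, a progenitor factor, read 91.9, 137.5 and 98.1 CPM in the B2 replicates, against 75.4, 278 and 82.1 CPM in the DMSO replicates. Between replicate numbers BCL2 and CDK6 passed the test, 2 of the 16, where 2.68% of all genes passed, and both were highest in number 2. BCL2, a survival gene, read 22.4, 27.5 and 5.23 CPM under B2, against 9.48, 47.7 and 6.25 CPM under DMSO (edgeR adjusted p = 0.0197). CDK6, a G1 kinase gene, read 8.48, 17.6 and 9.29 CPM under B2 and 7.76, 29.1 and 6.94 CPM under DMSO (adjusted p = 0.0494).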

How the data were processed

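RNA-seq of 6 U937 libraries was available as 1 gene table, deposited by the authors and read as estimated counts without normalization. HISAT2 2.0.4 is named in the submitters' processing notes. No source used here gives the counter, build, annotation or strand. All values were whole, so rounding had no effect. The value 4 occurred 6465 times, against 3144 times for 3 and 2022 for 5, an excess that whole-read counting does not produce, so low values are approximate. Library totals ran from 61150740 to 78431054, and 3 counts corresponded to 0.0386 to 0.0538 CPM.

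Genes were kept by filterByExpr (minimum count 10, total 15), leaving 17224, scaled by TMM and tested with edgeR 4.0.16 under R 4.3.3 (quasi-likelihood, Benjamini-Hochberg over all tested genes, threshold 0.05). Fits were treatment alone, and replicate number with treatment. Code was checked on simulated data. Symbols came from a gene name table, lengths and GC from GENCODE 29, promoters from RefSeq.

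Members and lists were chosen with earlier results of these data known. Named besides the 10 members were up to 3 genes per list with the smallest p in either fit, the 5 most like HOXA9 and the defining markers; other genes are named for their level, position or overlap, after their values were seen. Some genes that this rule names are not reported here. Same-numbered libraries deviated together (correlations 0.21, 0.40 and 0.50 for numbers 1, 2 and 3), so numbers were taken to pair libraries; the pairing comes from the data, not the labels. Alternatives were RLE factors, library totals, other filters, counts divided by 4, DESeq2 1.42.0, limma-voom 3.58.1, a replicate block, number without treatment and each library left out. The length and GC trend and the removal of number 3 were added after seeing the data.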

Additional observations from a re-analysis of the deposited data

How the results depend on the processing

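None of the 10 genes was called for B2 against DMSO under any alternative. The count of called genes stayed at 0 under RLE factors, library totals, both other filters, counts divided by 4, limma-voom, the length and GC trend removed, and the replicate block, which changed no call. It was 3 with DESeq2 and 2 with the replicate block and the trend removed. These 2 were ENSG00000273433, which overlaps HOXA4 and HOXA3, and ENSG00000266086. The count was 48 without both number 3 libraries and with the block, and 0 to 1 without 1 library.

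Between replicate numbers 461 genes were called, against 956 with RLE factors, 266 with library totals, 1346 with the stricter filter, 2379 (17.1% of genes tested) with counts divided by 4, 871 with the trend removed, 1674 with DESeq2, and 388 (without DMSO replicate 3) to 4124 (without B2 replicate 1; 1726, or 9.61%, without B2 replicate 2). HOXA7 passed with counts divided by 4 (edgeR adjusted p = 0.0381), DESeq2 (0.0270) and without B2 replicate 1 (0.0337). MEIS1 passed with counts divided by 4 (edgeR adjusted p = 0.00748) and without B2 replicate 1 (0.0154) or 2 (0.0312), and HOXA6 without B2 replicate 1 (0.0455). Log2 fold changes of B2 over DMSO turned sign as follows, with no call. HOXA9 was -0.053 with the trend removed and -0.044 with block and trend. HOXA11 was 0.024 with library totals and 0.058 without number 3 and with the block, and DOT1L 0.016 with library totals. MEIS1 was 0.188 with the replicate block, 0.054 with the trend removed, 0.109 with both, 0.223 without number 3 and with the block, and 0.172 with limma-voom. Without 1 library the range was -0.497 to 0.174 for HOXA7, 0.087 to 0.692 for HOXA5, 0.061 to 0.826 for HOXA6, -0.419 to -0.035 for MLLT10, -0.25 to 0.267 for HOXA9, -0.172 to 0.118 for HOXA10, -0.231 to 0.051 for HOXA11, -0.517 to 0.798 for MEIS1, -0.481 to 0.177 for PICALM and -0.277 to 0.154 for DOT1L. For number 3 against the others, MLLT10 was -0.021 with library totals and -0.086 to 0.149 without 1 library, HOXA10 -0.069 to 0.333, HOXA9 0.091 to 0.481, HOXA11 0.014 to 0.339, DOT1L -0.447 to -0.118 and MEIS1 -0.78 to -0.015. The cause of these shifts was not tested. With 3 libraries a group and a median SE of 0.41 (log2) over genes, small changes were not detectable.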
